A study of Mus musculus with 8 samples.

Results

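The measurements described here are those of 48 chromatin and transcription regulators that have been linked to autism or intellectual disability. The members were taken by gene name from the annotation of the arrays, with every probe that carried the name, which gave 143 probes of the 56605 on the array and 48 of its 37074 named features. From 1 to 7 probes represented each gene, so that a change of the whole gene could be set apart from a change of a single probe.

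Chromatin regulators act on the packaging of DNA. Some add or remove methyl and acetyl groups on histone tails or methyl groups on DNA, and others, the remodellers, use ATP to move or evict nucleosomes, so that together they set which genes a cell can transcribe. Loss of 1 working copy of many of these genes is known in neurodevelopmental disorders, and neurons keep expressing most of them in the adult brain.

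The study asked which brain transcripts differ between 2 mouse strains, in males. Total RNA of the dissected cerebral cortex with the striatum, from 4 BTBR/R animals (BTBRTF/ArtRbrc) and 4 B6 animals (C57BL/6J), was hybridised to 8 Agilent 1-colour arrays, 1 animal per array. BTBR/R is an inbred line studied for its social behaviour, and B6 served as the control strain. No experimental treatment was given, and mice of both strains were decapitated under deep pentobarbital anaesthesia. Mice were 4 months old, except that BTBR/R replicate 1 was 6 months old. BTBR/R carries spontaneous mutations of the brachyury gene T, of Itpr3 (the tufted allele tf) and of the coat colour gene agouti (at), and the groups differ over the whole inbred background. BTBR/R came from a resource centre and B6 from a breeder. All 8 arrays lay on 1 slide, with B6 in one column and BTBR/R in the other, so the strain difference and a difference between slide columns cannot be told apart. Values below are scaled log2 signals, in which 0 is the 75th percentile of the array. That percentile was a processed signal of 535 to 589 on the 8 arrays. The share of probes well above background, called detected here, was 64.5% to 66.8% on B6 arrays and 53.5% to 57.2% on BTBR/R arrays.

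The tissue held the markers of its label. All 5 general neuron markers, 5 of 5 cortical excitatory markers and 7 of 7 striatal markers were detected, and the mean over the general neuron markers was 2.87 to 2.91 in B6 and 2.84 to 2.91 in BTBR/R. Among the general neuron markers Syt1 was called lower (-0.24), and among the cortical ones Cux2 higher (0.27) and Rorb lower (-0.39). The mean of the striatal list was 1.90 to 2.06 in B6 and 1.72 to 1.88 in BTBR/R. Of its 7 markers 1 was called, Pde10a, a phosphodiesterase, at -1.07, and the others differed by -0.15 (Drd1) to 0.02 (Adora2a). The endothelial list ran from 0.14 to 0.26 in B6 and from -0.15 to 0.094 in BTBR/R, with 2 of 4 markers called lower. For oligodendrocytes the ranges were 2.57 to 2.94 in B6 and 2.40 to 2.60 in BTBR/R, with 3 of 5 markers lower. Red blood cell transcripts, at 1.58 to 3.33 in B6 and 1.05 to 1.34 in BTBR/R, were lower in every BTBR/R mouse. Means of the astrocyte, microglia and interneuron lists differed by -0.079, 0.034 and 0.10, although single markers were called, 2 of 5 lower for astrocytes, 2 of 6 higher and 2 lower for microglia, and 1 of 5 higher and 1 lower for interneurons. The choroid plexus list differed by -0.12 within a range of -1.86 to 0.23 in B6. The part of these shifts in the results below was not tested. In dissected tissue, fewer cells of a type and less RNA per cell cannot be told apart.

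Most of the members were well measured. Of the 143 probes, 113 (79.0%) were detected on all 8 arrays, against 50.4% of all probes, and 47 of the 48 genes had at least 1 such probe. The exception was Hdac2, a class I deacetylase, whose single probe was detected in all B6 mice and in 3 of 4 BTBR/R mice. Its scaled signal was -3.18, -2.85, -3.31 and -3.17 in the 4 B6 mice and -3.26, -3.42, -3.75 and -3.66 in the 4 BTBR/R mice, and the strains overlapped. Among the members' probes, 6 (4.20%, beside 6.16% of all probes) were detected in all B6 mice but in no BTBR/R mouse. Another 4 (2.80%, beside 6.08%), that of Hdac2 included, were detected in all B6 and part of the BTBR/R mice. Of the rest, 1 was detected in all BTBR/R but in no B6 mice, 13 (9.09%, beside 10.9%) on other sets of arrays, and 6 (4.20%, beside 26.3%) on none.

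The probes on which the single-probe results turn are shown here, each read 5′ to 3′ from the scanner files. Coordinates are those of the arrays' annotation, in build mm9, and whether a probe lies in an exon, an intron or a UTR was not analysed here unless stated. Hdac1 and Kdm6b each have 1 probe that lies in coding sequence and is given whole, and of every other probe only the first 30 of its 60 bases are given. No base is set in capitals, since no motif was marked.
Hdac1 coding probe (chr4:129194655-129194714, minus strand): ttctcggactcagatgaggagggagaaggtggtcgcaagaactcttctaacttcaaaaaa
Hdac1 middle probe (chr4:129193507-129193578, minus strand): tttttaggaggggtctgggtcttttcaggc
Hdac1 most 3′ probe (chr4:129193374-129193433, minus strand): gtggaggttgatagcctagcttcctttttg
Kdm6b probe (chr11:69213554-69213698, minus strand): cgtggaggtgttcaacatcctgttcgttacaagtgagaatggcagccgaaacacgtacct
Kdm5b second probe (chr1:136503116-136503175, plus strand): ggaagtttagtagggatgtttgtgagtgct
Kdm5b most 3′ probe (chr1:136528046-136528105, plus strand): ctgtacacggtgctatttctattccttatg
Ankrd11 clone probe (chr8:125455544-125455603, minus strand): ggatttgagccctttaccatggaaacctca
Mbd5 most 3′ probe (chr2:49174688-49174747, plus strand): ccttgtgtcatgtaatggacttgtgtttgt
Kdm4a first probe (chr4:117814648-117814707, minus strand): ctctggaagcaaaccgctgctgatacagtt
Kdm4a second probe (chr4:117809645-117809704, minus strand): ggagggcttcataccttgctctgtatacag
Traf7 first probe (chr17:24664808-24664867, minus strand): aagcagcacctagagttcctgaagtccgtg
Traf7 second probe (chr17:24645828-24645887, minus strand): ccaggggtcctttttactcaccttttctac
The coding probe of Hdac1 had 45.0% G and C, the middle probe 43.3% and the most 3′ probe 35.0%. The Kdm6b probe covers 145 bases of the genome with its 60 bases, so it crosses a splice junction, and the middle Hdac1 probe covers 72.

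At the level of whole genes, taken as the mean over the probes detected on all 8 arrays, 11 of the 47 members were higher in BTBR/R, 7 were lower, and 29 did not pass the test (limma, adjusted p below 0.05 over all 18861 genes). That is 38.3% of the members, beside 32.5% of all genes tested (15.6% higher and 17.0% lower). The differences were small. No member reached 2-fold, a change that 2.08% of all genes passed, since the largest member difference was that of Kdm6b at 0.80 on the log2 scale. At 1.3-fold or more, 2 were called (Kdm6b and Hdac1, the latter with probes that moved both ways), beside 12.1% of all genes. The median over the members was 0.019, beside -0.0016 over all genes, and the median size was 0.094, beside 0.12. The count of higher members depended on the scaling of the arrays. It was 5, with 7 lower, when the median of each array was used, and 6, with 7 lower, when the percentile was taken over detected probes. It also depended on single mice. Leaving out 1 mouse gave 6 to 10 higher and 5 to 6 lower, with 6 higher without B6 replicate 2, B6 replicate 3 or BTBR/R replicate 4, and 7 without B6 replicate 4 or BTBR/R replicate 2. Without BTBR/R replicate 1, the older mouse, 8 were higher and 6 lower.

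**Figure D1:**
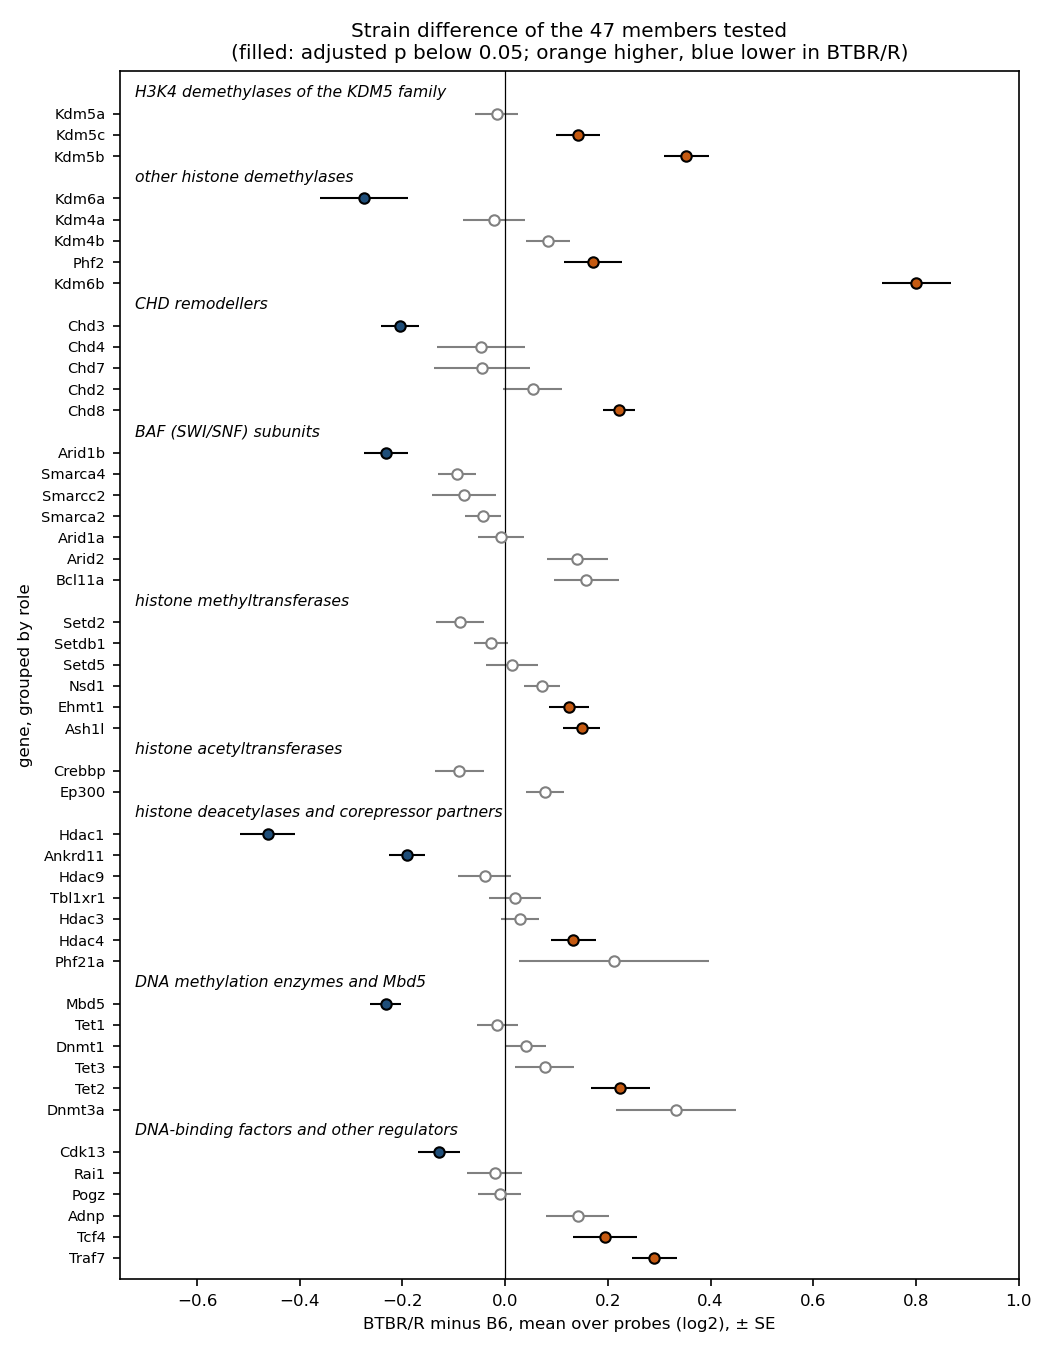
Strain difference (BTBR/R minus B6, log2, ± SE) of each of the 47 members tested, grouped by role, as the mean over the probes detected on all 8 arrays. Filled points had an adjusted p below 0.05; Kdm6b lies furthest right at 0.80 and Hdac1, a mean of probes that moved both ways and 0.75 by their median, furthest left at -0.46, with most members between -0.3 and 0.3.

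The KDM5 enzymes remove methyl groups from lysine 4 of histone H3, a mark of active promoters. In this family 2 of 3 members were higher in BTBR/R. Kdm5c, the X-linked member, had a gene-level signal of -0.54, -0.65, -0.67 and -0.65 in the 4 B6 mice and -0.50, -0.42, -0.53 and -0.49 in the 4 BTBR/R mice. All BTBR/R mice lay above all B6 mice, although the highest B6 mouse was close to the lowest BTBR/R mouse. The difference was 0.14 ± 0.04 (SE, n = 4, limma adjusted p = 0.0358) between the 4 mice of each strain, and it was no longer called under 11 of 18 alternative settings. Kdm5a differed by -0.02 and did not pass the test.

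Kdm5b was higher by 0.35 ± 0.04 (SE, n = 4, limma adjusted p = 4.42e-04), but its 5 probes did not move alike. The second probe from the 5′ end, annotated to an Ensembl transcript, read -1.91, -1.92, -1.62 and -1.77 in the 4 B6 mice and -0.78, -0.68, -0.71 and -0.69 in the 4 BTBR/R mice. The strains were far apart on this probe, with a rise of 1.09 ± 0.08 (SE, n = 4, limma adjusted p = 2.76e-05), or 2.13-fold. The other 4 Kdm5b probes differed by 0.12 to 0.20, and of these only the 2 nearest the 3′ end passed the test, at 0.20 (limma adjusted p = 0.0154) and 0.18 (limma adjusted p = 0.0193). Set against the mean of the other Kdm5b probes within each array, the second probe rose further by 0.92 ± 0.06 (SE, n = 4, limma adjusted p = 6.52e-06). That value is just under the 1 log2 unit needed for a call. The deposited log2 values, almost the same processed signals less a constant per array and so no independent check, kept the probe's rise past 2-fold. Normexp background correction lowered that rise to 0.89.

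Among the other histone demethylases, Kdm6b stood out. Kdm6b and Kdm6a remove methyl groups from lysine 27 of histone H3, the mark laid down by Polycomb, and Kdm6b is known as an inducible gene. Its single probe read -0.22, -0.46, -0.32 and -0.30 in the 4 B6 mice and 0.54, 0.58, 0.36 and 0.42 in the 4 BTBR/R mice. Every BTBR/R mouse was above every B6 mouse by a gap several times the spread within a strain. The gene-level rise was 0.80 ± 0.07 (SE, n = 4, limma adjusted p = 4.30e-05), or 1.74-fold. It ranged from 0.73 to 0.84 over 18 alternative settings and remained called in each. With 1 probe for the gene, no second probe could be compared, and the settings that change the choice of probes could not move the value from 0.80.

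Kdm6a, the X-linked partner of Kdm6b in this reaction, moved the other way. Its 2 detected probes differed by -0.23 and -0.32, and neither passed the test alone. The gene-level signal was -2.44, -2.58, -2.65 and -2.58 in the 4 B6 mice and -2.60, -2.89, -2.85 and -3.00 in the 4 BTBR/R mice, a difference of -0.27 ± 0.09 (SE, n = 4, limma adjusted p = 0.0387). The strains overlapped, and the call was lost under 9 of 18 alternatives and turned positive, at 0.10, when dim probes were included. Phf2, which acts on lysine 9 of histone H3, rose by 0.17 ± 0.06 (SE, n = 4, limma adjusted p = 0.0463), with -0.87, -0.90, -1.05 and -0.88 in the 4 B6 mice and -0.80, -0.65, -0.83 and -0.75 in the 4 BTBR/R mice. The Phf2 call was lost under 11 of 18 alternatives. Kdm4b, an enzyme for lysines 9 and 36, differed by 0.08 and did not pass.

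Kdm4a, from the same family as Kdm4b, differed between its 2 probes, both annotated to its RefSeq mRNA. The second probe, detected on all arrays, read 1.71, 1.72, 1.70 and 1.77 in the 4 B6 mice and 1.75, 1.52, 1.77 and 1.78 in the 4 BTBR/R mice, a difference of -0.02 ± 0.07 (SE, n = 4, limma adjusted p = 0.825). The first probe was detected on every BTBR/R array and on no B6 array. It read -5.75, -6.63, -5.37 and -5.38 in the 4 B6 mice and -2.43, -3.27, -3.04 and -2.51 in the 4 BTBR/R mice. Computed from the processed signals, it was at least 5.07-fold higher in BTBR/R, a bound taken against the lowest detected signal of each B6 array or the probe's own signal where that was higher. With normexp background correction its log2 difference was 1.03, which is under this bound, so the bound holds only for the processed signals, and no p is given against a strain in which the probe was not detected. Only 0.101% of all probes were detected on every BTBR/R array and not on every B6 array.

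**Figure D2:**
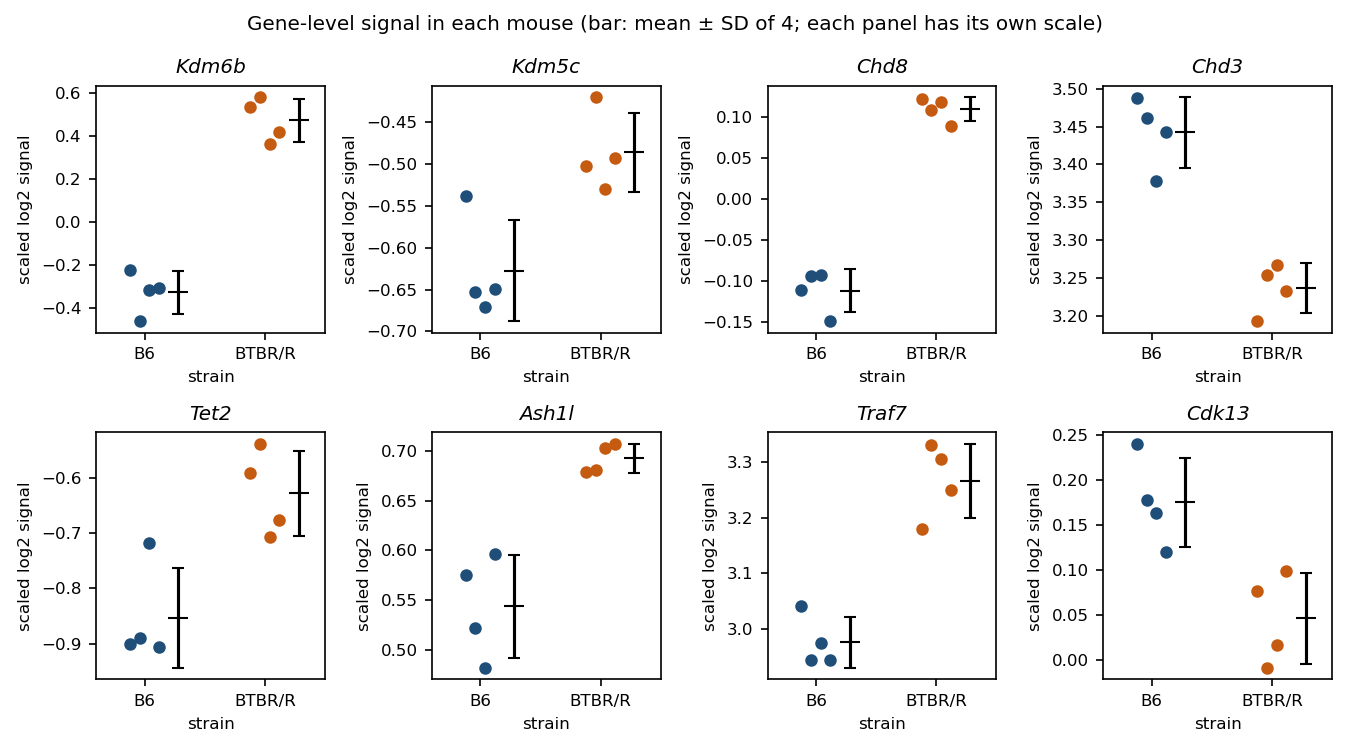
Gene-level signal (scaled log2; 0 is the 75th percentile of the array) of 8 members in each B6 and BTBR/R mouse, with the mean ± SD of 4 beside the points and a separate scale per panel. The 8 were picked from the members called at the gene level, of which 16 of 18 do not overlap (Kdm6a and Tcf4 do). The share over all genes was not counted. In the panels shown the strains do not overlap, with the widest gap for Kdm6b and small gaps for Kdm5c and Tet2.

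CHD proteins are ATP-dependent remodellers that bind chromatin through chromodomains. Of the 5 measured, 1 was higher, 1 lower and 3 did not pass. Chd8, among the genes most strongly linked to autism, had a gene-level signal of -0.11, -0.09, -0.09 and -0.15 in the 4 B6 mice and 0.12, 0.11, 0.12 and 0.09 in the 4 BTBR/R mice, with a difference of 0.22 ± 0.03 (SE, n = 4, limma adjusted p = 9.50e-04). Its 4 probes fell into pairs. The outermost 5′ probe and the one next to the 3′ end rose by 0.46 and 0.42 (limma adjusted p = 0.00125 and 0.00239), whereas the second probe and the most 3′ probe changed by -0.06 and 0.06 and did not pass. Against the other probes of the gene, all 4 differed at an adjusted p below 0.05, by -0.37 to 0.32, and none by 1 log2 unit. When Chd8 was represented by its most 3′ RefSeq probe alone, the gene was no longer called (limma adjusted p = 0.234).

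Chd3, an ATPase of the NuRD corepressor complex, differed by -0.14 and -0.27 on its 2 probes, of which the second, nearer the 3′ end, passed the test alone. The gene-level signal was 3.49, 3.46, 3.38 and 3.44 in the 4 B6 mice and 3.19, 3.25, 3.27 and 3.23 in the 4 BTBR/R mice, and no BTBR/R mouse reached the lowest B6 mouse. The difference of -0.21 ± 0.04 (SE, n = 4, limma adjusted p = 0.00352) remained called under all 18 alternatives, with values from -0.27 to -0.19. With 2 probes, both detected, the median over probes and the inclusion of dim probes could not change the value. Chd4, the other main NuRD ATPase, differed by -0.05, Chd7 by -0.05 and Chd2 by 0.05, none of them called.

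The BAF complex is the mammalian SWI/SNF remodeller, built around Smarca4 or Smarca2 as ATPase and with Arid1a or Arid1b as its large DNA-binding subunit. Of 7 members, 1 was lower and 6 did not pass. As a gene, Arid1b fell by 0.23 ± 0.04 (SE, n = 4, limma adjusted p = 0.00387), with 0.95, 0.86, 0.92 and 0.92 in the 4 B6 mice and 0.67, 0.62, 0.77 and 0.66 in the 4 BTBR/R mice. This fall came from 1 of its 2 detected probes, an mRNA clone probe at -0.46 (limma adjusted p = 0.00238) that the annotation places on the opposite strand from the other Arid1b probes. The probe on the RefSeq mRNA changed by -0.01 (limma adjusted p = 0.929). The difference between these probes was -0.45 ± 0.08 (SE, n = 4, limma adjusted p = 0.00409), and without the opposite-strand probe the Arid1b call was lost (-0.0062, limma adjusted p = 0.917). The 3 probes of Smarca4 differed by -0.15 to -0.060, none of them called, and its gene-level difference was -0.09 ± 0.04 (SE, n = 4, limma adjusted p = 0.0814), with no overlap of the strains. Smarca2 (-0.04), Smarcc2 (-0.08), Arid1a (-0.01), Arid2 (0.14) and Bcl11a (0.16) did not pass either. All 4 detected Bcl11a probes had positive differences, from 0.065 to 0.29.

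Among 6 histone methyltransferases, 2 were higher and 4 did not pass. Ash1l, which methylates lysine 36 of histone H3, read 0.57, 0.52, 0.48 and 0.60 in the 4 B6 mice and 0.68, 0.68, 0.70 and 0.71 in the 4 BTBR/R mice, without overlap. Its rise was 0.15 ± 0.04 (SE, n = 4, limma adjusted p = 0.0151), with 0.09 and 0.20 on its 2 probes. Ehmt1, which methylates lysine 9 in a complex with G9a, read 0.78, 0.87, 0.74 and 0.80 in the 4 B6 mice and 0.95, 0.92, 0.89 and 0.92 in the 4 BTBR/R mice on its 1 detected probe and rose by 0.12 ± 0.04 (SE, n = 4, limma adjusted p = 0.0375). The Ehmt1 call was lost under 12 of 18 alternatives and that of Ash1l under 3. Including the other Ehmt1 probe, which was detected in BTBR/R replicate 2 and on no other array, moved the gene's difference to 1.57, and that was not called (limma adjusted p = 0.0956). Setd2, Setd5, Setdb1 and Nsd1 lay between -0.09 and 0.07. The 2 acetyltransferases, Ep300 and Crebbp, close relatives that act as coactivators, differed by 0.08 (limma adjusted p = 0.145) and -0.09 (limma adjusted p = 0.183), 0 of them called and 0 at an unadjusted p below 0.05. On its most 3′ probe, Crebbp differed by 0.01.

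Deacetylases and their partners gave the widest disagreement between probes. Hdac1 is a class I deacetylase found in the NuRD, Sin3 and CoREST complexes. As a gene it fell by 0.46 ± 0.05 (SE, n = 4, limma adjusted p = 3.00e-04), or 1.38-fold. The gene-level signal was 1.59, 1.54, 1.52 and 1.44 in the 4 B6 mice and 1.07, 1.14, 1.09 and 0.94 in the 4 BTBR/R mice. This mean joins probes that moved in opposite directions, 2 down and 1 up. With the median over probes the gene's value turned to 0.75, which is the difference of the middle probe alone, since that probe's level lay between those of the other 2 on every array.

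The coding probe of Hdac1 read 0.91, 0.83, 0.80 and 0.56 in the 4 B6 mice and -0.63, -0.34, -0.64 and -0.83 in the 4 BTBR/R mice. It fell by 1.38 ± 0.12 (SE, n = 4, limma adjusted p = 5.03e-05), or 2.61-fold, which was the largest difference among the member probes detected on all arrays. The most 3′ probe read 2.79, 2.75, 2.72 and 2.79 in the 4 B6 mice and 2.02, 2.01, 2.10 and 1.92 in the 4 BTBR/R mice. It fell by 0.75 ± 0.05 (SE, n = 4, limma adjusted p = 2.76e-05). The middle probe, whose accession is a predicted RefSeq transcript, read 1.08, 1.05, 1.04 and 0.97 in the 4 B6 mice and 1.84, 1.74, 1.82 and 1.73 in the 4 BTBR/R mice and rose by 0.75 ± 0.05 (SE, n = 4, limma adjusted p = 2.76e-05). On each of the 3 probes the strains were separate, with B6 above BTBR/R on the first and last and below it in the middle.

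Each Hdac1 probe was then compared with the mean of the other 2 within each array, a test in which the scaling of the arrays cancels. The coding probe differed from the others by -1.38 ± 0.11 (SE, n = 4, limma adjusted p = 2.52e-05). The middle probe differed by 1.81 ± 0.06 (SE, n = 4, limma adjusted p = 2.03e-07). For the most 3′ probe the difference was -0.43 ± 0.07 (SE, n = 4, limma adjusted p = 0.00275), under 1 log2 unit. The calls on the coding and middle probes remained under all 15 alternatives tried for this comparison. Among these, median scaling and the percentile over detected probes could not change the values, since a constant per array cancels.

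Ankrd11, an ankyrin-repeat protein that binds deacetylases, showed a single-probe change. Its most 5′ probe, annotated to a cDNA clone, read -1.28, -1.17, -1.10 and -1.27 in the 4 B6 mice and -2.05, -2.35, -2.38 and -2.12 in the 4 BTBR/R mice. It fell by 1.02 ± 0.09 (SE, n = 4, limma adjusted p = 6.39e-05), or 2.03-fold. The other 3 probes changed by -0.02, 0.16 and 0.12, and the one on the RefSeq mRNA passed as higher (limma adjusted p = 0.0182). Against them, the clone probe differed by -1.11 ± 0.10 (SE, n = 4, limma adjusted p = 8.03e-05), a 2-fold call that was lost under 1 of 15 alternatives, normexp background correction (-0.72). The gene-level difference of -0.19 ± 0.04 (SE, n = 4, limma adjusted p = 0.00386) turned sign without that probe, to 0.086, and was then not called (limma adjusted p = 0.135). The 2-fold call of the clone probe was lost by a small margin when B6 replicate 3 was left out (-0.99), as when 1 BTBR/R mouse was, replicate 2 (-0.98) or replicate 3 (-0.97), and with normexp background correction (-0.65).

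Of the remaining deacetylase members, Hdac4, a class IIa enzyme, had positive differences on all 4 probes, from 0.027 to 0.26. Its gene-level signal was -0.83, -0.94, -0.92 and -0.84 in the 4 B6 mice and -0.77, -0.67, -0.79 and -0.76 in the 4 BTBR/R mice, a rise of 0.13 ± 0.04 (SE, n = 4, limma adjusted p = 0.0451) whose call was lost under 16 of 18 alternatives. Hdac9, of the same class, differed by -0.04 as a gene while its 5 detected probes ran from -0.36 to 0.40. Its single probe that differed from the rest at an adjusted p below 0.05 did so by 0.55 ± 0.15 (SE, n = 4, limma adjusted p = 0.0323). Phf21a, a reader in the CoREST complex, read -0.70, -0.65, -0.74 and -0.72 in the 4 B6 mice and -0.63, 0.15, -0.75 and -0.73 in the 4 BTBR/R mice, and BTBR/R replicate 2 lay apart from the others. Hdac3 (0.03) and Tbl1xr1 (0.02), both of the NCoR complex, did not pass.

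**Figure D3:**
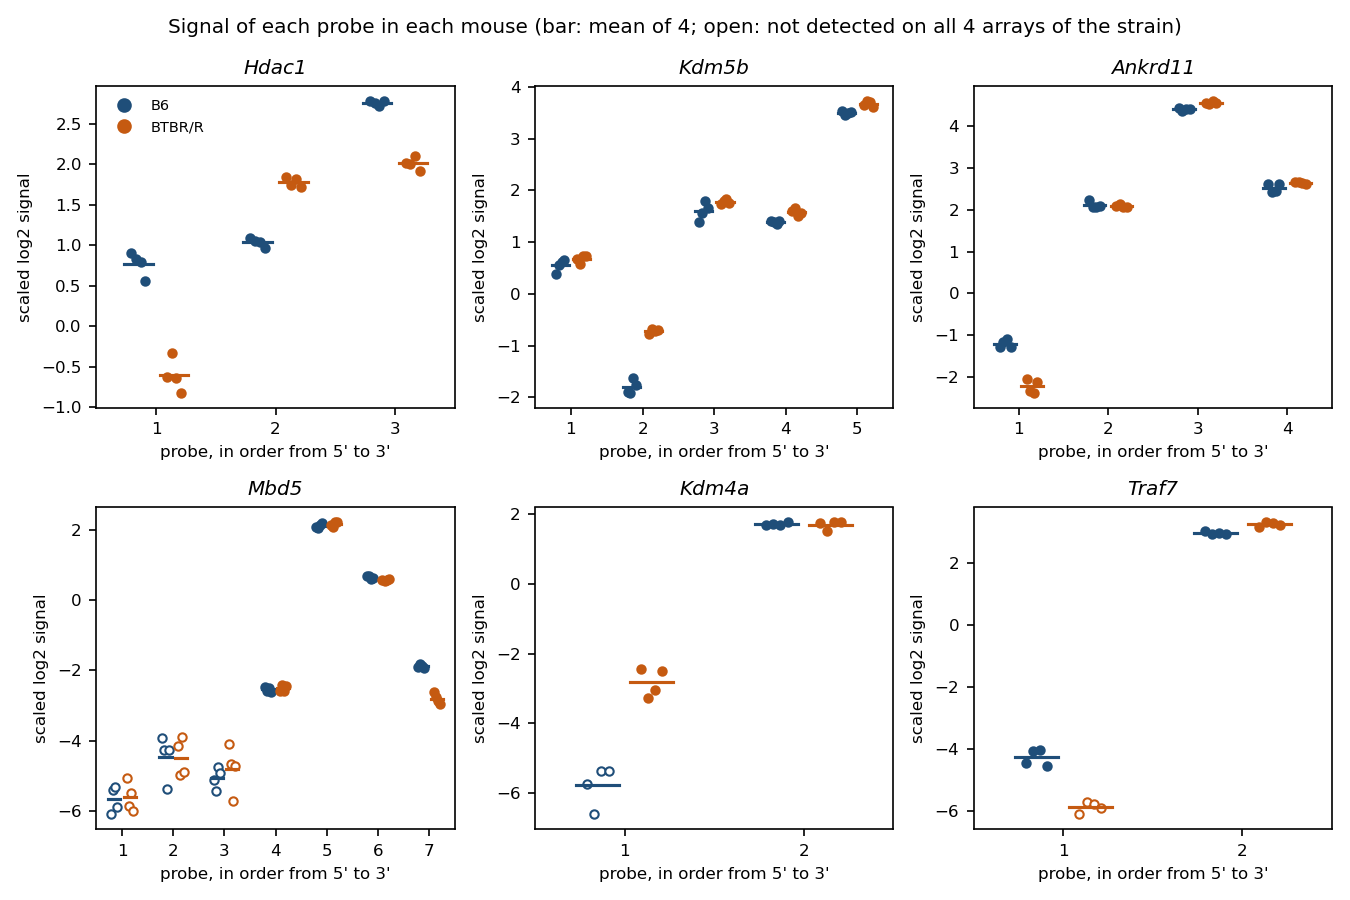
Scaled log2 signal of each probe in each mouse for 6 members, with probes ordered along the gene from 5′ to 3′ and bars for the mean of 4; open points mark a strain in which the probe was not detected on all 4 arrays. One probe of Kdm5b, Ankrd11 and Mbd5 departs from the others, the first probe of Kdm4a was detected only in BTBR/R and that of Traf7 only in B6, and the 3 probes of Hdac1 move in both directions.

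Of the 6 DNA methylation genes, 1 was higher, 1 lower and 4 did not pass. Tet2, which oxidises methylated cytosine, differed by 0.19 to 0.25 on its 3 probes, and the 2 on the RefSeq mRNA passed the test as higher. The gene-level signal was -0.90, -0.89, -0.72 and -0.91 in the 4 B6 mice and -0.59, -0.54, -0.71 and -0.68 in the 4 BTBR/R mice, and the highest B6 mouse came close to the lowest BTBR/R mouse. The rise was 0.22 ± 0.06 (SE, n = 4, limma adjusted p = 0.0180). The call was lost under 2 of 18 alternatives. Tet1 (-0.02), Tet3 (0.08) and the maintenance methyltransferase Dnmt1 (0.04) did not pass. Dnmt3a, a de novo methyltransferase, differed by 0.33 ± 0.12 (SE, n = 4, limma adjusted p = 0.0597). Its strains did not overlap, and BTBR/R replicate 2 was the highest of its values at 0.29.

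Mbd5, named for a domain shared with methyl-DNA binding proteins, fell by 0.23 ± 0.03 (SE, n = 4, limma adjusted p = 5.85e-04) as a gene, with -0.41, -0.41, -0.41 and -0.44 in the 4 B6 mice and -0.63, -0.65, -0.67 and -0.65 in the 4 BTBR/R mice. Its probes did not move alike. The most 3′ probe, annotated to an Ensembl transcript, read -1.90, -1.82, -1.87 and -1.94 in the 4 B6 mice and -2.60, -2.77, -2.87 and -2.95 in the 4 BTBR/R mice, and fell by 0.92 ± 0.08 (SE, n = 4, limma adjusted p = 5.62e-05), or 1.89-fold. The other 3 detected probes changed by 0.02, 0.04 and -0.08, none of which passed. Set against them, the most 3′ probe differed by -0.91 ± 0.09 (SE, n = 4, limma adjusted p = 1.17e-04). Over 15 alternatives this difference ran from -0.99 to -0.58. With the most 3′ RefSeq mRNA probe in place of the mean, Mbd5 differed by 0.043 (limma adjusted p = 0.527). Its gene-level difference ran from -0.355 to 0.043 over 18 alternatives.

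The last group holds DNA-binding factors and regulators of transcription, of which 2 were higher, 1 lower and 3 did not pass. Traf7, a ubiquitin ligase of the TRAF family, had 1 of its 2 probes detected on all arrays. That probe, near the 3′ end, read 3.04, 2.94, 2.97 and 2.94 in the 4 B6 mice and 3.18, 3.33, 3.31 and 3.25 in the 4 BTBR/R mice, a rise of 0.29 ± 0.04 (SE, n = 4, limma adjusted p = 0.00148) in the gene-level test. The first probe was detected in all B6 mice but in no BTBR/R mouse. It read -4.45, -4.06, -4.05 and -4.54 in the 4 B6 mice and -6.12, -5.72, -5.80 and -5.91 in the 4 BTBR/R mice. No test, difference or fold is given for it, since the B6 signals themselves lay under the lowest detected signal of every BTBR/R array. When this probe was included in the mean, the gene's difference turned to -0.66.

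Tcf4, a helix-loop-helix factor, had positive differences on all 4 detected probes, from 0.043 to 0.52, and a gene-level signal of 1.09, 1.22, 1.13 and 1.21 in the 4 B6 mice and 1.40, 1.47, 1.20 and 1.35 in the 4 BTBR/R mice. The strains overlapped by a small margin, BTBR/R replicate 3 lying below the highest B6 mouse. The call of its rise, 0.19 ± 0.06 (SE, n = 4, limma adjusted p = 0.0420), was lost under 12 of 18 alternatives. Cdk13, a kinase of the transcription machinery, differed by -0.08 and -0.18 on the 2 probes that carry its name in the scanner files, and the latter passed the test. A probe that the study lists for Cdk13 carries another gene name there and was not used here. Its signal was 0.24, 0.18, 0.16 and 0.12 in the 4 B6 mice and 0.08, -0.01, 0.02 and 0.10 in the 4 BTBR/R mice, and the call of its difference, -0.13 ± 0.04 (SE, n = 4, limma adjusted p = 0.0428), was lost under 8 of 18 alternatives. Adnp (0.14), Pogz (-0.01) and Rai1 (-0.02) did not pass.

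Considered probe by probe, 9 of the 143 member probes (6.29%) were called at an adjusted p below 0.05 and 2-fold, 6 higher and 3 lower, beside 22.4% of all 56605 probes (20.2% higher and 2.27% lower). Most of the calls on the whole array were of dim probes, for 67.7% of the probes detected on no array were called higher in BTBR/R. Among the members 4 of the 6 higher calls were of this kind, at 1 probe each of Kdm6a, Phf21a and Tbl1xr1, detected on no array, and of Arid2, detected on 1, and no level or fold is given for them. Of the 3 lower calls, 1 was of the first Traf7 probe, which was not detected in BTBR/R and for which no fold is given. Over the 113 probes detected on all 8 arrays, 3 were called (Kdm5b higher, Hdac1 and Ankrd11 lower), beside 2.20% of all such probes. At an adjusted p below 0.05 alone, 23 of the 113 (20.4%) passed, 16 higher and 7 lower, in 16 genes, beside 26.9% of all such probes.

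The probes differ in the kind of transcript they were designed on. Of the 85 member probes with a RefSeq mRNA accession, 1 reached the 2-fold call, and their median size of difference was 0.089. Of 22 Ensembl probes 1 was called, with a median size of 0.14, and of 5 cDNA or EST probes 1 was called, with a median size of 0.35. These are counts over few probes, and no test was made between the kinds.

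Probes of the same member were compared directly in the 36 genes that had at least 2 probes detected on all arrays. The spread between the lowest and the highest probe of a gene had a median of 0.14 on the log2 scale and was under 0.2 in 21 genes. In 7 genes it passed 0.5, namely Hdac1 (2.13), Ankrd11 (1.18), Kdm5b (0.97), Mbd5 (0.96), Phf21a (0.83), Hdac9 (0.76) and Chd8 (0.52). In 19 of the 36 genes every probe had the same sign. Of the 102 probes compared, 22 (21.6%) differed from the other probes of their gene at an adjusted p below 0.05, beside 18.9% of all 16208 probes compared, and they lay in 7 genes. With the further requirement of 1 log2 unit, 3 (2.94%) were called, beside 2.40%, namely the coding and middle Hdac1 probes and the Ankrd11 probe described above.

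**Figure D4:**
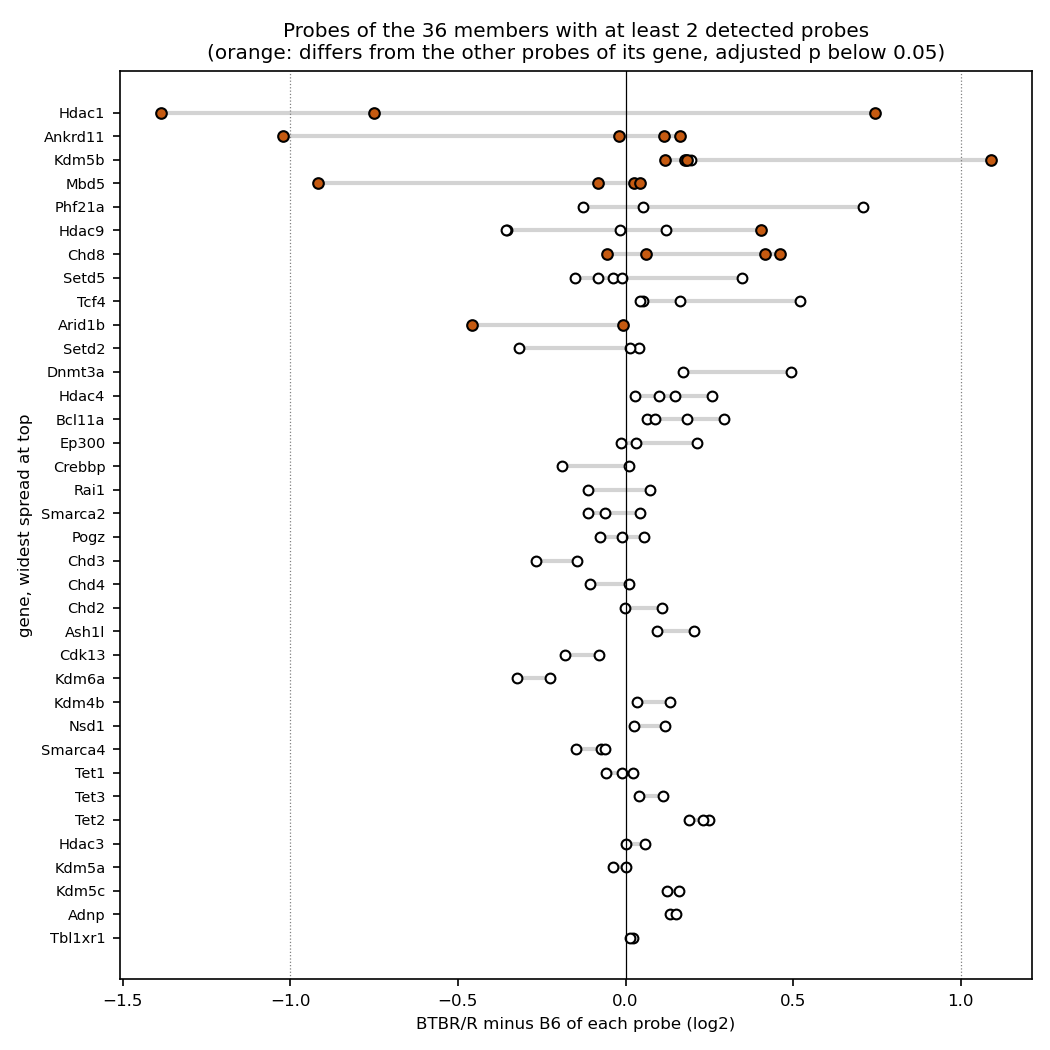
Strain difference (log2) of every probe detected on all 8 arrays, for the 36 members with at least 2 such probes, ordered by the spread between probes; orange points differ from the other probes of their gene at an adjusted p below 0.05. Hdac1, Ankrd11, Kdm5b and Mbd5 spread over 0.96 to 2.13 log2 units and the median gene over 0.14.

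Genes of the same families and complexes that are not members were also counted. Of 120 such genes, 114 were on the array by name and 110 were tested. In BTBR/R 28 were higher, 12 were lower and 70 did not pass, with a median of 0.047, and none reached 2-fold. Over all genes tested 15.6% were higher and 17.0% lower, with a median of -0.0016. With median scaling of the arrays 14 were higher and 10 lower. The lowest of those called was Dnmt3b, a de novo methyltransferase, at -0.51, and the highest was Dpf1, a neuronal BAF subunit, at 0.34, both picked out after their values were seen. By family, 6 of 17 methyltransferase and Polycomb genes were higher and 2 lower, 7 of 20 other deacetylases and acetyltransferases were higher and 2 lower, and 4 of 15 demethylase relatives were higher and 2 lower. Of 20 BAF partners 4 were higher and 1 lower, of 17 NuRD, Sin3 and NCoR partners 3 were higher and 0 lower, and of 15 remodeller relatives 3 were higher and 3 lower. Among 6 other DNA methylation genes, 1 was higher and 2 were lower. Against the other probes of their gene, 31 of 204 probes of these families (15.2%), in 19 genes, had a limma adjusted p below 0.05, beside 18.9% of all probes compared, and 52 had an unadjusted p below it. None of the 204 also reached 2-fold, by limma or by limma diffSplice, and the largest difference was 0.689.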

How the data were processed

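The authors deposited the Feature Extraction 10.7.3.1 intensities of every spot of 8 arrays, with a processed signal that is background subtracted, and log2 values from GeneSpring, used as an alternative. Control spots and outlier spots were left out and spots of a probe averaged, which left 56605 probes, none saturated. Log2 of the processed intensity was taken minus the 75th percentile of each array. The difference between strains was fitted in limma 3.58.1 under R 4.3.3, and p-values were adjusted after Benjamini and Hochberg over 56605 probes, over 18861 genes with a probe detected on all 8 arrays, or over 16208 probes set against the others of their gene. Tables and plots were made in Python 3.11.15 with pandas 2.3.3, scipy 1.17.1, numpy 2.4.6 and matplotlib 3.10.9. Mice were grouped by the strain in their labels. The number of arrays limits the precision.

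On simulated data for BTBR/R against B6, 198 of 200 changed probes (99.0%, 56605 probes) and 197 of 200 genes (98.5%, 18861 genes) were recovered. For probes within genes the count was 198 of 200 (99.0%, 16208 probes). Calls of unchanged probes, unchanged genes and unchanged probes within genes numbered 18, 18 and 3. Recovery at the median size of the members' gene-level differences, 0.094, was not tested separately. Members and lists were chosen with earlier results of these data known. Every member is named, and values in every sample are given for members with a called probe detected in a whole strain, members called at 1.3-fold or more, probes called against the others of their gene, and up to 2 further members per role with the lowest adjusted p. Of 97 member probes with a RefSeq accession, 95 matched the reference table, all with the same symbol. Exon positions and a genome sequence were not used here.

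Alternatives were normexp (offset 50), quantile and median scaling, the percentile over detected probes, limma with trend and robust options, the replicate number as a block, leaving out each mouse, the log2 values of the authors, a fit on probes detected in a whole strain, the methods' unpaired test, all probes or the median over probes for a gene, and diffSplice. After seeing the data, 2 were added for genes, 1 RefSeq mRNA probe a gene, and the mean without probes that were called against the others or lay on the other strand.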

Additional observations from a re-analysis of the deposited data

Results flagged for a closer look

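In each strain, the highest or lowest mouse was compared with the other 3 at the gene level, by the gap to its neighbour as a share of the range (Dixon's test at the 95% level). Of 94 groups of 4, 6 (6.38%) passed, where 5% are expected by chance alone. BTBR/R replicate 2 was the mouse that stood apart for 3 of the 6 genes. Its signal was 0.15 for Phf21a, where the other BTBR/R mice read -0.75 to -0.63, and 1.52 for Kdm4a, against 1.75 to 1.78. For Chd4 it was 3.21, against 3.53 to 3.57. BTBR/R replicate 3 was at -1.15 for Arid2, above the other mice of its strain at -1.20 to -1.19. Among B6 mice, replicate 1 was at -0.54 for Kdm5c, above -0.67 to -0.65, and replicate 3 at -0.72 for Tet2, above -0.91 to -0.89. None of these 6 shifts involves a member with a 2-fold call on a probe detected on all 8 arrays. The cause was not tested.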

How the results depend on the processing

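The main counts were 3 member probes called of those detected on all 8 arrays, 11 members higher and 7 lower at the gene level, 28 related genes higher and 12 lower, and 3 member probes called against their gene. Normexp left 1 of the 3 probes called, the Hdac1 coding probe, and the other 2 stayed below 2-fold. The methods' unpaired test called 3 of these probes at the methods' threshold after Benjamini-Hochberg adjustment, as did the authors' log2 values. Median scaling gave 5 members and 14 related genes higher, and the percentile over detected probes 6 members higher. Including dim probes gave 15 related genes higher. With the replicate number as a block, 8 members were higher and 6 lower, and 18 related genes were higher and 9 lower. The numbers do not pair the mice, since the same-number correlations of deviations from the strain means ran from -0.070 to 0.16. With 1 RefSeq mRNA probe a gene, an alternative chosen after seeing the data, 4 members were lower. Ankrd11 was then called higher (0.16, limma adjusted p = 0.00660). Adnp, Dnmt3a, Kdm4b and Nsd1 also passed as higher, and Ash1l, Chd8, Hdac4 and Tcf4 were no longer called. Leaving out 1 mouse gave 6 to 10 members higher and 5 to 6 lower, 16 to 23 related genes higher and 7 to 12 lower, 2 to 3 member probes called, and 3 called against their gene. The lowest count of lower related genes, 7, came without B6 replicate 2.

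Of the 18 members called at the gene level, 5 turned sign under at least 1 alternative, and sign changes of members not called were not counted. Including dim probes moved Kdm6a to 0.10 and Traf7 to -0.66, the latter by adding its 5′ probe to the mean. The median over probes gave 0.75 for Hdac1, its middle probe's own difference, while the single RefSeq probe gave -0.75. The median moved Ankrd11 to 0.048. The single RefSeq probe moved Ankrd11 to 0.16 and Mbd5 to 0.043, and dropping the probes that differ from their gene moved Ankrd11 to 0.086. All 5 are genes whose probes disagree, or whose call already failed under other alternatives. With no turn of sign, normexp moved Ankrd11 to -0.11, Ash1l to 0.092, Ehmt1 to 0.064, Kdm6a to -0.060 and Mbd5 to -0.088, and the single RefSeq probe moved Arid1b to -0.0062, Ash1l to 0.094, Chd8 to 0.062, Hdac4 to 0.027, Kdm5b to 0.18 and Tcf4 to 0.52. Signal over background limits the dim probes, as detection began at a signal of 14.5 to 17.8 on B6 arrays and of 36.1 to 47.1 on BTBR/R arrays.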
